A study of Homo sapiens with 4 samples.

Results

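The genes described here are those of 10 proteins that set how RNA polymerase II (Pol II) is held and released early in transcription. They were chosen by name, though with earlier results of these data known. They are the rows of the count table whose gene identifier, with its version removed, maps to the 10 GENCODE symbols named here. The 7SK snRNP proteins are HEXIM1, LARP7 and MEPCE, the subunits of the negative elongation factor (NELF) are NELFA, NELFB, NELFCD and NELFE, and AFF4, ELL2 and ELL belong to the super elongation complex. All 10 were found among 60708 rows, and all 10 were among the 23321 genes that passed the filter on low counts.

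The values come from TT-seq, in which RNA made during a short pulse of 4-thiouridine (4-SU), here 20 min, is purified and sequenced. They come from HEK293, a line of human embryonic kidney origin, with the genotype RPB1 degron, in which auxin triggers destruction of the endogenous largest Pol II subunit. All libraries came from cells that were transiently transfected with an RPB1 plasmid, given auxin 48 h later and kept in it for 48 h. The plasmid carried a C-terminal domain (CTD) of 52 repeats, either wild type (52X WT, n = 2) or with alanine in place of threonine-4 in every repeat (52X T4A, n = 2), so that there was no group without auxin or without a plasmid. The labels do not say whether replicates were separate cultures, so the p-values measure the spread between these libraries, which may be technical.

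Shortly after initiation, Pol II pauses downstream of many promoters, where NELF and DSIF (SPT4 and SPT5) hold it. The kinase P-TEFb, CDK9 with cyclin T1 or T2, releases it by phosphorylating NELF, DSIF and the CTD. Much of P-TEFb is kept inactive in the 7SK snRNP, in which MEPCE caps the 7SK RNA, LARP7 binds its 3′ end and HEXIM1 inhibits the kinase. The super elongation complex, built on AFF4 or a relative of it, brings active P-TEFb together with ELL family proteins, which raise the elongation rate of Pol II.

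The libraries held between 33188536 and 45605027 counts over all genes, and log2 CPM (counts scaled to a common library size) over tested genes had a correlation of 0.991 for the 52X WT replicates and 0.979 for the 52X T4A replicates. 52X T4A replicate 1 stood apart, with a correlation as low as 0.974 to a 52X WT library, against 0.988 or more for 52X T4A replicate 2. POLR2A, which encodes RPB1, took 0.743% to 0.961% of the counts of each library, and the table does not separate plasmid transcripts from those of the chromosomal gene. Since the degron acts on the protein, these counts are no check of the labels. The fitted log2 difference of POLR2A in 52X T4A was −0.24 (edgeR quasi-likelihood adjusted p = 0.659). Of the markers looked at for HEK293, VIM, KRT8 and KRT18 were between 18.6 and 90.6 normalized CPM, PAX2 and LHX1 were low, at 1.81 to 3.64, and NEFM had at most 6 counts. The blood markers PTPRC and HBB had at most 28 and 2 counts, the liver marker ALB at most 38 and the fibroblast marker COL3A1 at most 22. Per kb of listed gene length, averaged over the libraries, ALB was at 0.038 normalized CPM. This was above PAX2, at 0.025, and below LHX1, VIM, KRT8 and KRT18.

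RefSeq promoter windows on GRCh38 were found for 9 of the 10 genes. They are shown because the 7SK snRNP genes HEXIM1 and MEPCE carried a TATA element (TATAAA or TATATA on the strand of the gene, first base 40 to 20 bases before the start). It stood in 2 of the 12 windows of the 9 genes and in 3.12% of 34943 windows over all genes. Counted anywhere in the 250 bases before the start and on either strand, the element stood in 12.8% of all windows, and among the 9 genes again in HEXIM1 and MEPCE alone. The element began 31 bases before the start in HEXIM1, where TATATA and TATAAA overlap, and 30 bases before it in MEPCE. For MEPCE this was the first of 3 RefSeq starts, and the windows of its other starts had none. The 100 bases before the start are printed 5′ to 3′ on the strand of the gene with the element in capitals, at chr17:45148375-45148474 on the + strand for HEXIM1, chr7:100428690-100428789 on the + strand for MEPCE, chr9:137255227-137255326 on the + strand for NELFB and chr5:132963635-132963734 on the − strand for AFF4, the last 2 as examples without the element.
HEXIM1: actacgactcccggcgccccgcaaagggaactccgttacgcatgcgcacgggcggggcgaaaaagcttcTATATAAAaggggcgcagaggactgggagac
MEPCE: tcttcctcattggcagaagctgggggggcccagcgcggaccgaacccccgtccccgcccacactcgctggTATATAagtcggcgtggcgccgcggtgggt
NELFB: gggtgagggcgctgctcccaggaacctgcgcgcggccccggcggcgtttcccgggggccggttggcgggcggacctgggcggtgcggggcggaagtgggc
AFF4: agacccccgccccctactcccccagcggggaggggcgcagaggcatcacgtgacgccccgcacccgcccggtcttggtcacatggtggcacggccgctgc

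The windows of the 9 genes were rich in CpG dinucleotides. In the 250 bases before each of their RefSeq starts, between 58.4% and 78.4% of bases were G or C and between 20 and 36 CpG dinucleotides were counted, where the medians over all windows were 58% and 11. The GC content of LARP7, at 58.4% and 59.6% for its starts, was near that median. The presence or absence of these letters is a description of the window and was not set against any binding data.

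In T4A cells HEXIM1 and AFF4 were higher, and NELFA, NELFE and LARP7 somewhat lower, than in every WT library. For AFF4 the margin was slight, with 385.04 normalized CPM in T4A replicate 2 against 384.56 in WT replicate 2. None of the 10 differences passed the test across all genes. The test was edgeR's quasi-likelihood test on all 4 libraries with Benjamini-Hochberg adjustment over 23321 genes, and a gene was called at an adjusted p below 0.05 and a fold change above 1.5. Of the 10 genes 0 were called, where the test called 1 of all genes (0.00429%). That gene was CHST8, a carbohydrate sulfotransferase, which was higher in T4A (log2 fold change 1.06, adjusted p = 0.0311 from edgeR's test). DESeq2 also called 0 of the 10. At an unadjusted p below 0.05 in edgeR, 1 of the 10 was lower in T4A, NELFA, and 0 were higher. Over all tested genes 8.02% were lower and 7.45% higher at that p. Both T4A libraries lay above both WT libraries for 2 of the 10 genes and below both for 3. Over all tested genes these shares were 24.8% and 24.7%, so the counts among the 10 were near the background.

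Each interval gives the sizes of change that lie within it, given the spread between these libraries. It takes the scaling as given and does not cover a spread between separate cultures if the replicates are technical. The widest 95% interval of a log2 fold change among the 10 genes was that of NELFB, from −0.72 to 0.14, and the narrowest was that of LARP7, from −0.39 to 0.09. CPM are shares of a library, so a change of all transcription by one factor would not show in them. In bulk RNA, fewer cells that make an RNA and less RNA made per cell cannot be told apart. The table listed at 0 all 5417 genes that lay inside a gene of their own strand with at least 1000 counts, against 35.6% of the 7258 genes that lay inside such a gene on the opposite strand only. Counting therefore took account of strand, and a read lying over 2 genes of the same strand was dropped. None of the 10 genes lost more than 1.47% of its length to a listed gene of its strand.

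**Figure D1:**
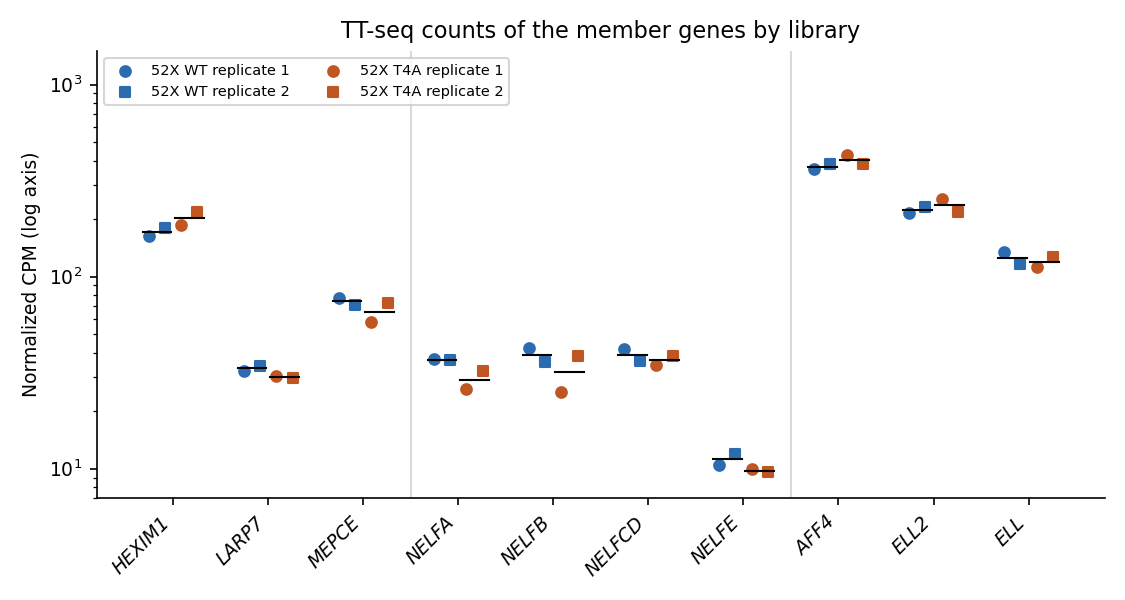
Normalized CPM (log axis) of each of the 10 genes in the 4 libraries, with 52X WT in blue, 52X T4A in orange, circles for replicate 1, squares for replicate 2 and bars for the group means. Both T4A points of HEXIM1 and AFF4 lie above both WT points, and those of LARP7, NELFA and NELFE lie below.

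HEXIM1 (ENSG00000186834.4) is the inhibitor in the 7SK snRNP and is encoded by a gene of 3625 bases without introns at chr17:45148475-45152099, + strand. Its normalized CPM were 163 and 180 in 52X WT replicates 1 and 2 and 185 and 218 in 52X T4A replicates 1 and 2. Every T4A library was thus above every WT library, by the smallest margin between WT replicate 2 and T4A replicate 1. The means were 171 ± 11.8 (SD, n = 2) and 202 ± 22.9 (SD, n = 2), a log2 fold change of 0.23 (standard error 0.11, 95% interval −0.014 to 0.48, adjusted p = 0.342 from edgeR's test). Without T4A replicate 1 the log2 fold change was 0.35 and without T4A replicate 2 it was 0.098, and the alternative settings with all libraries gave 0.16 to 0.33. HEXIM2-AS1, a noncoding gene on the opposite strand that shares 46.9% of the span of HEXIM1, was at 28.9 and 28.5 normalized CPM in WT and 21.4 and 24.6 in T4A (log2 fold change −0.32, adjusted p = 0.284 from edgeR's test). Without introns, the counts of HEXIM1 cannot be split into nascent and spliced RNA by position.

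LARP7 (ENSG00000174720.16, chr4:112637107-112657592, + strand) encodes the La-related protein that binds the 3′ end of the 7SK RNA. Its normalized CPM were 32.4 and 34.1 in WT and 30.4 and 29.6 in T4A. The T4A libraries were below the WT libraries and lay close to each other. T4A over WT was −0.15 on the log2 scale (standard error 0.11, 95% interval −0.39 to 0.09, adjusted p = 0.513 from edgeR's test). The miR-302 and miR-367 hairpins lie inside LARP7 on the opposite strand, and their host gene MIR302CHG had at most 4 counts in a library.

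MEPCE (ENSG00000146834.14, chr7:100428790-100434118, + strand) encodes the enzyme that puts a methyl cap on the 7SK RNA. It had 77.4 and 71.1 normalized CPM in WT and 58.2 and 72.8 in T4A. Only T4A replicate 1 was below the WT libraries, and T4A replicate 2 lay between them. The log2 fold change was −0.18 (standard error 0.12, 95% interval −0.45 to 0.09, adjusted p = 0.481 from edgeR's test), and without T4A replicate 1 it was −0.021. Without T4A replicate 2 it was −0.37 (adjusted p = 0.0338 from edgeR's test), short of a fold of 1.5, in a fit in which 13.8% of all genes had an adjusted p below 0.05. The 7SK RNA itself could not be followed, since both rows named RN7SK overlap each other and are listed at 0 in all libraries.

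The NELF subunit genes had fitted log2 fold changes below 0 for all 4 of them, and 0 were called. Of the 10334 tested genes at or above the mean level of NELFE, 64.4% were also below 0. NELFA (ENSG00000185049.16, chr4:1982717-2041903, − strand) encodes the subunit that contacts Pol II. It had 37.0 and 36.8 normalized CPM in the WT libraries, a gap smaller than in any other gene of the 10, and 25.9 and 32.2 in the T4A libraries. The log2 fold change was −0.35 (standard error 0.13, 95% interval −0.64 to −0.054, unadjusted p = 0.0256, adjusted p = 0.274 from edgeR's test). Among the 8 alternative settings that kept all 4 libraries, its log2 fold change ran from −0.42 to −0.27 and its adjusted p from 0.0396 to 0.354. The lowest adjusted p came with the trend on GC content removed, a setting chosen after seeing the data, where the fold still fell short of 1.5 and 10.8% of all genes had an adjusted p below 0.05. Without T4A replicate 2 it was −0.53 (adjusted p = 0.00360 from edgeR's test), short of a fold of 1.5 and in the fit with 13.8% of all genes below an adjusted p of 0.05, and without T4A replicate 1 it was −0.19. The table lists 59187 bases for NELFA, where RefSeq lists 26252, so its level per length is understated if most transcripts start at the RefSeq start.

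NELFB (ENSG00000188986.9, chr9:137255327-137273542, + strand) encodes a subunit that joins the others. It had 42.3 and 35.7 normalized CPM in WT and 25.2 and 38.6 in T4A. The T4A replicates differed by 0.61 on the log2 scale, more than for any other of the 10 genes, and T4A replicate 2 lay between the WT libraries. The log2 fold change was −0.29 (standard error 0.19, 95% interval −0.72 to 0.14, adjusted p = 0.472 from edgeR's test). It was −0.65 without T4A replicate 2, then past the threshold (adjusted p = 0.000190 from edgeR's test), and −0.0078 without T4A replicate 1, so that a single library decides the value. The fit without T4A replicate 2 called 9.96% of all genes.

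NELFCD (ENSG00000101158.15, chr20:58981208-58995133, + strand) encodes NELF-C and NELF-D, products of the same gene. Its normalized CPM were 42.0 and 36.5 in WT and 34.8 and 38.6 in T4A, with overlapping groups. This gave a log2 fold change of −0.096 (standard error 0.11, 95% interval −0.36 to 0.17, adjusted p = 0.704 from edgeR's test). CTSZ, the gene of the protease cathepsin Z on the opposite strand, shares 67.8% of its span and was at 19.5 and 20.3 normalized CPM in WT and 12.6 and 19.96 in T4A, with overlapping groups.

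NELFE (ENSG00000204356.14, chr6:31952087-31959038, − strand) encodes the RNA-binding subunit. It was the least counted of the 10, with 411 and 525 counts in WT and 333 and 332 in T4A. Its normalized CPM were 10.5 and 11.9 in WT and 9.92 and 9.60 in T4A. Both T4A libraries were below both WT libraries, by a margin smaller than the gap between the WT libraries. This difference was −0.20 on the log2 scale (standard error 0.15, 95% interval −0.55 to 0.15, adjusted p = 0.552 from edgeR's test).

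Of the super elongation complex genes, AFF4 and ELL2 had the most counts of the 10 summed over the libraries, and all 3 had intervals that spanned 0. AFF4 (ENSG00000072364.13, chr5:132875395-132963634, − strand) encodes the scaffold of the complex. Its normalized CPM were 364 and 385 in WT and 429 and 385 in T4A. T4A replicate 2 was above WT replicate 2 by less than 1 CPM, and T4A replicate 1 was the highest library. The log2 fold change was 0.12 (standard error 0.11, 95% interval −0.13 to 0.37, adjusted p = 0.606 from edgeR's test), and 0.048 without T4A replicate 1.

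ELL2 (ENSG00000118985.16, chr5:95885098-95961851, − strand) encodes an elongation factor with a key role in plasma cells. It had 214 and 231 normalized CPM in WT and 253 and 217 in T4A, and the groups overlapped. Its log2 fold change was 0.079 (standard error 0.11, 95% interval −0.17 to 0.33, adjusted p = 0.744 from edgeR's test), and it changed sign to −0.031 without T4A replicate 1. ELL (ENSG00000105656.13, chr19:18442663-18522116, − strand), its paralog and the founding member of the family, had 134 and 117 normalized CPM in WT and 112 and 127 in T4A. The groups overlapped here too, and the log2 fold change was −0.072 (standard error 0.11, 95% interval −0.31 to 0.17, adjusted p = 0.764 from edgeR's test). It changed sign without WT replicate 1 (0.019) and without T4A replicate 1 (0.025).

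The median log2 fold change of the 10 genes was −0.12, with 3 above 0 and 7 below, where the median of all tested genes was −0.00076. It was −0.018 without T4A replicate 1 and −0.045 with upper-quartile scaling. Of the 10334 tested genes with a mean level at or above that of NELFE, the least counted of the 10, the median was −0.073 and the middle 50% lay between −0.20 and 0.06. By group, the medians were −0.15 for the 7SK snRNP proteins, −0.25 for the NELF subunits and 0.079 for the super elongation complex. Among the 10 genes, the log2 fold change of NELFA was the only one whose interval lay wholly on a side of 0.

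**Figure D2:**
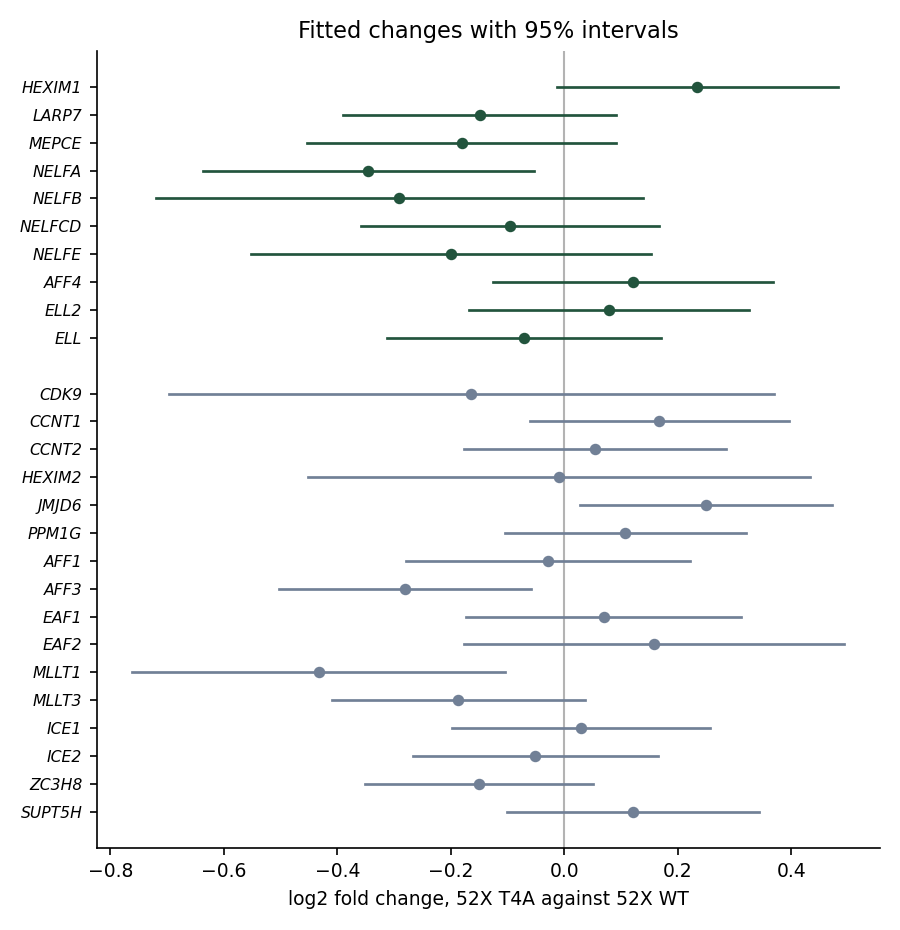
Log2 fold change between conditions (T4A over WT) with 95% intervals from edgeR's fit, for the 10 genes (green) and for tested genes of the wider pathway (grey). The intervals of NELFA, AFF3 and MLLT1 lie below 0 and that of JMJD6 lies above 0, and none of the genes drawn was called after adjustment.

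Levels were compared between genes as normalized CPM per kb of listed gene length, averaged over the 4 libraries. HEXIM1 was highest at 51.4 ± 6.32 (SD over 4 libraries) CPM per kb, above 99.7% of all tested genes. MEPCE followed at 13.1, above 98.5% of them, and AFF4 at 4.43, above 94.1%. The library ranges of these did not overlap each other or those of the next gene. ELL2 at 2.98 and NELFCD at 2.73 overlapped in their ranges, so their order is not resolved. NELFB at 1.95, LARP7 at 1.54, ELL at 1.54 and NELFE at 1.51 also overlapped, each with the next in this order. NELFA was lowest at 0.557 CPM per kb, below the range of NELFE and above 57.0% of all tested genes, with the longer listed span described above. The order, and the ranks among all tested genes, depend on the length used, because reads in introns were counted and HEXIM1 has no introns. Those ranks set it against genes whose listed length includes introns. Per kb of exonic length HEXIM1 was highest at 51.4, followed by AFF4 at 34.6, ELL2 at 32.2, ELL at 24.8 and MEPCE at 20.7. LARP7 was lowest at 3.91. The counts divided here still include reads in introns, so these values are not levels of exons. This division raises genes with long introns and leaves HEXIM1 as it was.

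**Figure D3:**
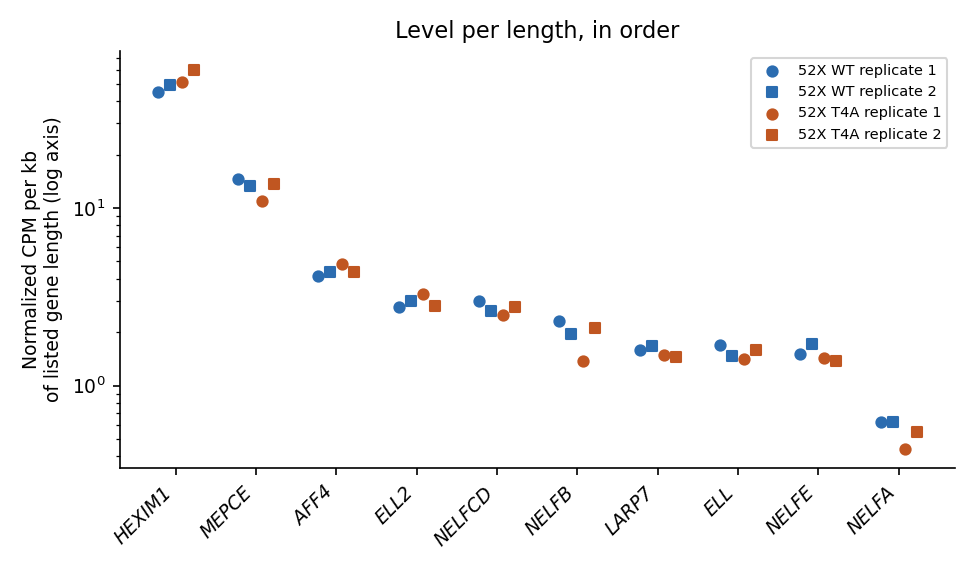
Normalized CPM per kb of listed gene length (log axis) of the 10 genes in each of the 4 libraries, in order of their mean, with 52X WT in blue and 52X T4A in orange. HEXIM1 (51.4) and MEPCE (13.1) stand above the rest, and the libraries of ELL2 and NELFCD and of NELFB, LARP7, ELL and NELFE intermingle.

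The gap between replicates of a condition moved with the GC content of the genes. On the log2 scale, replicate 1 over replicate 2 of T4A was −0.61 for NELFB, −0.32 for MEPCE and −0.18 for ELL, whose spans had the highest GC content of the 10 (56.4%, 58.8% and 55.5% in GRCh37). It was 0.22 for ELL2, 0.16 for AFF4 and 0.042 for LARP7, whose spans had the lowest (38.1%, 40.4% and 37.7%). In WT the signs were turned, with 0.24, 0.12 and 0.20 for NELFB, MEPCE and ELL and −0.11, −0.080 and −0.072 for ELL2, AFF4 and LARP7. NELFE, HEXIM1, NELFCD and NELFA lay between 48.3% and 49.4% in GC content, and their T4A gaps were 0.047, −0.23, −0.15 and −0.32. Their WT gaps were −0.18, −0.14, 0.20 and 0.0094, so the gap of HEXIM1 had the same sign in both conditions.

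The same was seen over all genes at these levels. Among the 10284 genes of this level with a GC value, the tenth with the highest GC content (median 56.7%) had a median gap of −0.47 in T4A and 0.16 in WT. The tenth with the lowest (median 36.2%) had 0.082 and −0.16. In T4A the fall was not steady and lay at the GC-rich end. The median T4A gap was 0.12 in the tenth with a median GC content of 41.9%, 0.026 at 48.3% and −0.11 at 51.8%. Across these genes the gap correlated with GC content at −0.65 in T4A and at 0.63 in WT, where all genes share the same libraries and are not independent. With the trend of each library on GC content removed, a setting chosen after seeing the data, the log2 fold changes of MEPCE, ELL2 and ELL changed sign, to 0.045, −0.014 and 0.0055. Those of the other genes kept their sign. HEXIM1 was at 0.16 and AFF4 at 0.048, while LARP7 was at −0.24, NELFB at −0.20, NELFCD at −0.17 and NELFE at −0.27. In that setting 75.4% of 10290 genes at these levels were below 0, against 64.4% of 10334 in the reported fit. The 4 NELF genes were below 0 in all 8 alternative settings and in each fit that left out 1 library, the closest to 0 being NELFCD without WT replicate 1, at −0.0034. These fits share libraries, and 43.6% of 10290 genes at these levels were below 0 in all of them and in the reported fit.

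**Figure D4:**
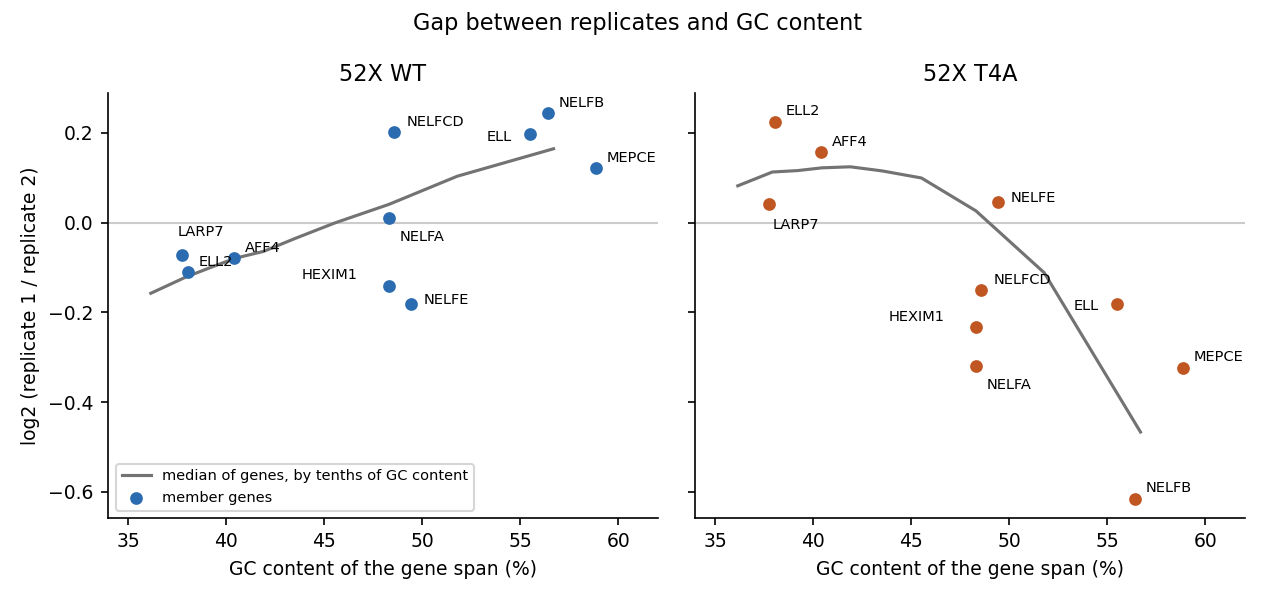
Log2 ratio of replicate 1 to replicate 2 against the GC content of the gene span, for 52X WT (left) and 52X T4A (right), with the 10 genes as points and the median over equal bins of 10284 genes at these levels as a grey line. GC-rich NELFB lies at 0.24 in WT and −0.61 in T4A, and GC-poor ELL2 lies at −0.11 and 0.22.

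The wider pathway was looked at through 20 further genes, of which 17 were tested. RN7SK and ELL3 were listed at 0 and SUPT4H1, which encodes SPT4, had at most 8 counts. ELL3 and SUPT4H1 each overlap another listed gene of their strand. Of the 17 genes 0 were called by edgeR, 1 was higher and 2 were lower at an unadjusted p below 0.05, and their median log2 fold change was −0.0099. Over all tested genes 7.45% were higher and 8.02% lower at that p. Both T4A libraries were above both WT libraries for 2 of the 17 genes and below them for 5, against 24.8% and 24.7% of all tested genes, so these counts too were near the background.

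Among the P-TEFb and 7SK partners, 7 genes were tested. JMJD6, an oxygenase that hydroxylates lysines in proteins, had 39.96 and 37.3 normalized CPM in WT and 45.8 and 46.0 in T4A. The groups did not overlap, and the log2 fold change was 0.25 (standard error 0.097, unadjusted p = 0.0314, adjusted p = 0.290 from edgeR's test). CDK9, the kinase of P-TEFb, had 17.8 and 16.7 normalized CPM in WT and 11.2 and 19.6 in T4A, so that its T4A libraries lay on both sides of the WT libraries. Its cyclins CCNT1 and CCNT2 were at 0.17 and 0.054 on the log2 scale (edgeR adjusted p = 0.442 and 0.816). HEXIM2, the paralog of HEXIM1, was at −0.0099 with a mean level of 7.55 ± 0.199 (SD, n = 2) normalized CPM in WT. Per kb of listed gene length, averaged over the 4 libraries, it was at 0.805 normalized CPM, against 51.4 for HEXIM1.

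Among the other super and little elongation complex genes 9 were tested, and 2 of them, MLLT1 and AFF3, were lower at an unadjusted p below 0.05, as were 8.02% of all tested genes. MLLT1, which encodes the YEATS protein ENL, had 119 and 104 normalized CPM in WT and 69.9 and 94.95 in T4A. Its log2 fold change was −0.43 (standard error 0.14, unadjusted p = 0.0158, adjusted p = 0.251 from edgeR's test). AFF3, a relative of AFF4, had 82.7 and 81.9 normalized CPM in WT and 72.5 and 63.1 in T4A. Its log2 fold change was −0.28 (standard error 0.097, unadjusted p = 0.0192, adjusted p = 0.256 from edgeR's test). SUPT5H, the tested gene of DSIF, was at 0.12 on the log2 scale (edgeR adjusted p = 0.567). None of these passed the adjustment over all genes.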

How the data were processed

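TT-seq libraries of 52X WT and 52X T4A cells were analysed (n = 2 each). The authors deposited raw counts per gene, from featureCounts on files that the column names mark as unique alignments. The submitters' processing notes name GRCh38, cutadapt 4.6, STAR 2.7.11b and deepTools 3.5.6, and the version of featureCounts and its strand setting are not given in the sources used here. Gene length as deposited was the full span in all 60708 rows, so introns were counted. Names came from GENCODE by stable identifier (58702 rows), and exonic length and GC content from its GRCh37 annotation. Counts were tested with edgeR 4.0.16 in R 4.3.3 (TMM, default filter, quasi-likelihood). Standard errors were derived from the F statistic. DESeq2 1.42.0, other scalings and filters, the replicate number as a block, and the removal of trends on length or GC content were alternatives. The fit was tested on simulated counts drawn without gaps between replicates that follow GC content. That test therefore cannot show how the fit behaves with the gaps of these libraries. The 10 genes, the 20 wider genes and the markers were chosen with earlier results of these data known. Other genes named are those called, POLR2A, and wider genes at an unadjusted p below 0.05 without overlap. CDK9, CCNT1, CCNT2, HEXIM2, SUPT5H and the overlapping genes were named after their values were seen. PECAM1 was not matched by symbol and is not analysed here. A gene of the wider list is counted in its totals but not reported here.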

Additional observations from a re-analysis of the deposited data

How the results depend on the processing

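None of the 10 genes was called in any of the 8 alternative settings that kept all 4 libraries. Against 1 gene called, DESeq2 called 106 (46 higher, 60 lower), no filter on low counts 65 (25 higher, 40 lower), the replicate block 433 (177 higher, 256 lower) and the removal of the GC content trend 477 (240 higher, 237 lower). With the block, 2 of the 10 genes were lower at an unadjusted p below 0.05, NELFA and NELFB. The share of all genes at that p was taken in the reported fit alone (8.02% lower, 7.45% higher). Counts at that p in the other settings therefore have no background and are not a result about these genes. The labels do not say whether same-numbered libraries share a culture or a day. Deviations of same-numbered libraries correlated at 0.00498 over all tested genes, which cannot decide that. Log2 fold changes that changed sign were those of MEPCE (0.0454), ELL2 (−0.0136) and ELL (0.00550) with the GC content trend removed, and ELL (0.00529) with upper-quartile scaling. At an unadjusted p below 0.05, the number of the 10 genes that were higher was 1 with DESeq2, upper-quartile scaling, at least 10 counts in every library or the gene length trend removed, and 2 with library size only. The number lower was 0 with library size only or upper-quartile scaling and 2 with the GC content trend removed. Their median was −0.0450 with upper-quartile scaling. The median of the wider genes was 0.0460 with library size only and 0.0691 with upper-quartile scaling. Of the wider genes, 3 were higher with library size only, 2 with upper-quartile scaling and 0 with no filter, the block or either trend removed. The number lower was 1 with upper-quartile scaling and 6 with the GC content trend removed. In that last fit 75.4% of 10290 genes at the levels of the 10 were below 0. Of all genes in it, 10.8% had an adjusted p below 0.05. The causes were not tested.

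With 1 library left out the lone library of a condition is assumed to vary like the others. Then 0 to 2500 genes were called, most without T4A replicate 2 and 195 without T4A replicate 1. NELFB ran from −0.645 to −0.00778 and was called without T4A replicate 2. ELL2 ran from −0.0314 to 0.172 and ELL from −0.183 to 0.0245. The median of the 10 genes ran from −0.184 to −0.0176, and that of the wider genes from −0.0474 to 0.0371. Levels per kb of exonic length still used counts that include reads in introns. They were 3.91 for LARP7, 20.7 for MEPCE, 6.52 for NELFA, 14.0 for NELFB and 6.03 for NELFCD. NELFE was at 3.96, AFF4 at 34.6, ELL2 at 32.2 and ELL at 24.8. With 2 libraries a condition, the intervals of NELFA, NELFB and NELFE reach below −0.5 on the log2 scale, so that changes of that size lie within them.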
